A study of Homo sapiens with 32 samples.

Results

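The chromosome 19 zinc finger (ZNF) genes are 238 protein-coding genes whose symbol is ZNF followed by digits alone, out of 57820 genes listed in the HCT116 count files. The rule reads symbol, gene type and chromosome from a gene table and no count. The HEK293 files list 11887 genes, 143 of them members of this set. Most of these genes encode C2H2 zinc finger proteins, and many also carry a KRAB domain. A tandem array of zinc fingers reads a DNA sequence, and the KRAB domain recruits TRIM28, which brings the histone methyltransferase SETDB1 and heterochromatin proteins to that site. The family grew by local duplication into clusters along chromosome 19, and many of its proteins are known to silence transposable elements.

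HCT116 is a human colorectal cancer cell line and HEK293 a human embryonic kidney line. All groups share Cas9-GFP, and all libraries come from clones of single GFP-high cells: controls carried an empty guide vector, and the others guides that delete E7, 18qE or 18qNE, distal regulatory elements. For HCT116 there were 12 control libraries (4 clones, each on extraction days A, B and C), 3 libraries of 1 E7 clone (days A, B and C), 3 18qNE clones (1 library each, day A or B) and, from day D, 2 18qE clones with 2 control libraries. In HEK293, 2 control clones and 2 E7 libraries came from day E, and the E7 libraries carry 1 clone label although their titles number them 1 and 2. With 1 E7 clone in HCT116 and perhaps 1 in HEK293, the deletion cannot be told apart from other features of that clone. These are bulk libraries, in which fewer cells with a transcript and less transcript per cell cannot be told apart.

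The HCT116 libraries of the first 3 days held 9871667 to 14862268 gene counts, those of day D held 22972412 to 24887785, and HEK293 libraries held 26491576 to 34790193. The epithelial genes EPCAM, KRT8, KRT18, KRT19, CDH1, CDX2 and CLDN4 were present in the HCT116 controls, while VIL1, LGALS4 and CEACAM5, also known from colon epithelium, were under 0.2 CPM (a gene's count divided by the library's gene counts, times 1000000). The HEK293 files list 5 of these 10 genes. CDX2 had 17.7 CPM in the HEK293 controls, beside 21.5 CPM in the HCT116 controls. EPCAM, KRT8, KRT18 and KRT19 had 105, 299, 112 and 55.6 CPM in HEK293, beside 342, 2587, 919 and 902 CPM. Of 7 genes listed as markers of HEK293, its files hold 4 (LIN28B, DPYSL3, GATA3 and NEFM), which summed to 239.5 and 310.5 CPM in its controls, with LIN28B at 128 CPM on average and NEFM at 0.656 CPM. The 7 summed to 79.3 to 108 CPM in the HCT116 controls, where DPYSL3 gave 77.2 CPM and LIN28B 0.193 CPM, and to 13.2 to 20.1 CPM in the E7 clone, where DPYSL3 had 5.54 CPM. Neither control library of day D showed a clear match to the clone of its label on days A to C. Of 143 genes called at least 2-fold different in control clone 4, the library labelled control clone 1 lay on clone 4's side for 116, against 74 or 75 for the other day D libraries. Of 45 such genes of clone 1 it lay on clone 1's side for 9, and the other day D libraries did for 8 to 24. The library labelled control clone 2 lay on clone 2's side for 11 of 55, and the other day D libraries did for 4 to 22. Both are therefore called by their labels.

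A member was counted as on at 2 CPM or more and as off below 0.2 CPM, in each clone (libraries of a clone summed) or single library. Over the 12 HCT116 clones and day D libraries, 127 members were on in every one, 58 were off in every one and 48 others lay between these limits in at least 1 of them. Within the 58 lie 14 members with 0 counts in all 22 HCT116 libraries, among them ZNF382, ZNF536, ZNF570 and ZNF71. Only 5 members were on in one HCT116 clone or library and off in another: ZNF615, ZNF550, ZNF426, ZNF91 and ZNF329. Without the day D library labelled control clone 1 there were 4, since ZNF91 was off only there, and without both day D controls 3, since ZNF329 was off only in the other. The number on ran from 136 to 141 among the controls and the 18qNE and 18qE clones, and was 132 in the E7 clone. In HEK293, all 143 listed members were on in both control libraries and 142 in both E7 libraries, the exception being ZNF700.

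**Figure D1:**
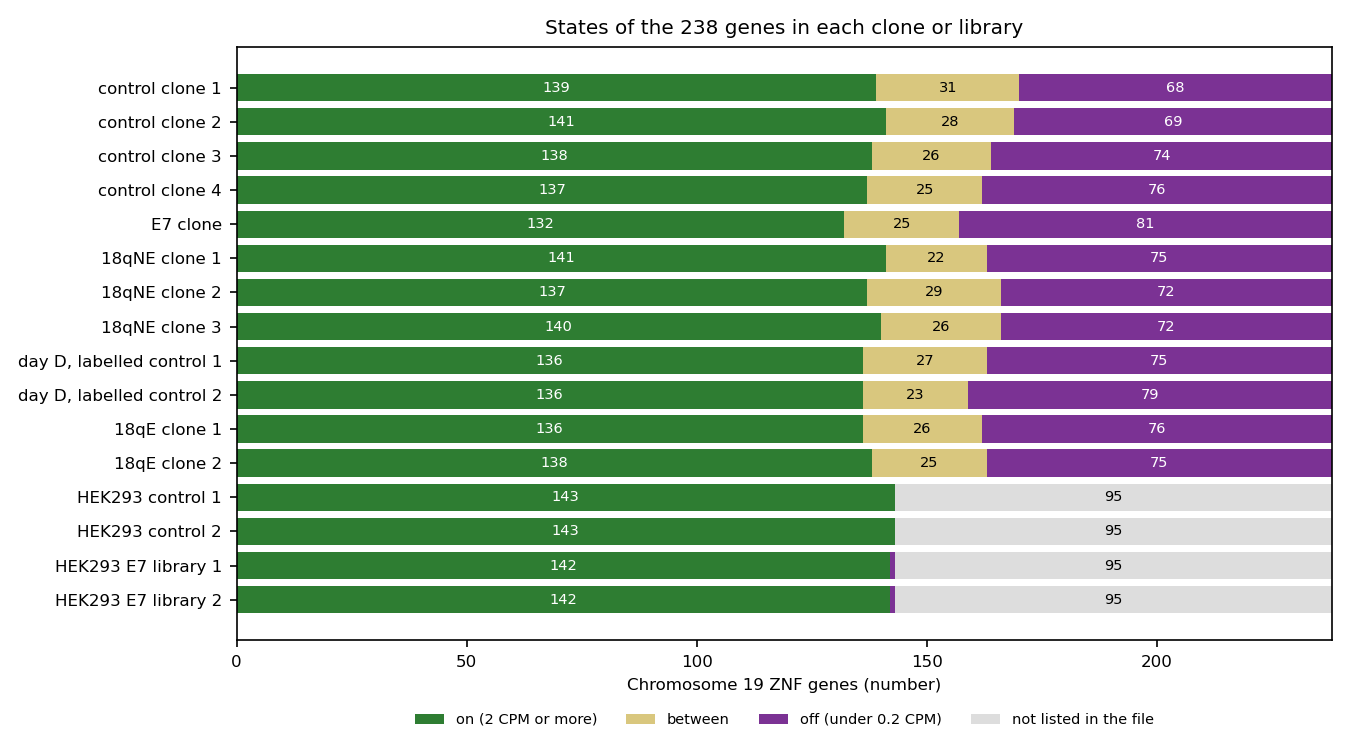
Number of chromosome 19 ZNF genes that were on, between or off in each clone or library (horizontal axis: genes, 238 in all). The E7 clone of HCT116 has the fewest on (132), and the HEK293 files leave out 95 members.

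The stretches of DNA before the start sites of 8 members are shown: the 6 that switched inside a line and, as examples of those that differed between the lines, a pair of neighbours. Each line gives the 250 bases upstream of the RefSeq start site (assembly GRCh38.p14, chromosome 19, while the counts were made on hg19), 5′ to 3′ on the gene's strand, with every CG dinucleotide in capitals. CG reads the same on both strands. ZNF615, ZNF550 and ZNF426 went off in the E7 clone of HCT116, ZNF700 went off in E7 of HEK293, ZNF91 and ZNF329 were off in 1 day D control library each, and ZNF529 and ZNF382 were off in HCT116 and on in HEK293.
ZNF615, chr19:52008212-52008461, minus strand: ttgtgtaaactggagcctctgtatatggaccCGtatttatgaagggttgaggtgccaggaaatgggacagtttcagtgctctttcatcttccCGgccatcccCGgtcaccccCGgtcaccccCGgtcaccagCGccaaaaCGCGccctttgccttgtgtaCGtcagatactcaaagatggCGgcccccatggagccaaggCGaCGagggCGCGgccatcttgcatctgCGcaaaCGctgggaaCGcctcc
ZNF550, chr19:57559864-57560113, minus strand: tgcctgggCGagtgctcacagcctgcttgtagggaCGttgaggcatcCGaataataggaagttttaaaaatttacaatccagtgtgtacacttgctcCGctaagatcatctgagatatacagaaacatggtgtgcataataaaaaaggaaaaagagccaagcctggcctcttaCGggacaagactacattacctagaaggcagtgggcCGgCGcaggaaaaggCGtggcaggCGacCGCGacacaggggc
ZNF426, chr19:9538646-9538895, minus strand: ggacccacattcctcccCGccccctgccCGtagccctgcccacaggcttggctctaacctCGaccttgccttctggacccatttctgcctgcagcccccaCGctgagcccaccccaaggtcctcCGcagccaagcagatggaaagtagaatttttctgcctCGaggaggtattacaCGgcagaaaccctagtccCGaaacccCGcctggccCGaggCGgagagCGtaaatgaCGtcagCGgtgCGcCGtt
ZNF700, chr19:11924857-11925106, plus strand: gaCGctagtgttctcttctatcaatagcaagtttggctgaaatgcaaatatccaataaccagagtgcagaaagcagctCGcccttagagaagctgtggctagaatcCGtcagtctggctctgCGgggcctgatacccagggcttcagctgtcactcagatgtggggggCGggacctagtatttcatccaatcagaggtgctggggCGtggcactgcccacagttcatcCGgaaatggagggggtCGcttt
ZNF91, chr19:23395472-23395721, minus strand: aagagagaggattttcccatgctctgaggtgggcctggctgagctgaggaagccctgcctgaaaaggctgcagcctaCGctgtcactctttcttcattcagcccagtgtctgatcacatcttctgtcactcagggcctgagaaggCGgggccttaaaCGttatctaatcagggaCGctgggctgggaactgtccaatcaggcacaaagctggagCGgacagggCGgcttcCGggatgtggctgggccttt
ZNF329, chr19:58150790-58151039, minus strand: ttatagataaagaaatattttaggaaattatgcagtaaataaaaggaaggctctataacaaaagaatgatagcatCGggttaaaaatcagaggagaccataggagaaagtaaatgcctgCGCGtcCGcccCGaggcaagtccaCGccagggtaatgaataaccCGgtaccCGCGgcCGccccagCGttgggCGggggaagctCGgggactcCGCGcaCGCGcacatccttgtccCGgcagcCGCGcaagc
ZNF529, chr19:36605258-36605507, minus strand: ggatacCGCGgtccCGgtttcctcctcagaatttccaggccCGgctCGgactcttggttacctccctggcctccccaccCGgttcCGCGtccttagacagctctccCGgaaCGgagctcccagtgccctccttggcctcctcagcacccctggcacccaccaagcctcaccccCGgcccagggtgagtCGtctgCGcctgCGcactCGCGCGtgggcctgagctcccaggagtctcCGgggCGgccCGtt
ZNF382, chr19:36605063-36605312, plus strand: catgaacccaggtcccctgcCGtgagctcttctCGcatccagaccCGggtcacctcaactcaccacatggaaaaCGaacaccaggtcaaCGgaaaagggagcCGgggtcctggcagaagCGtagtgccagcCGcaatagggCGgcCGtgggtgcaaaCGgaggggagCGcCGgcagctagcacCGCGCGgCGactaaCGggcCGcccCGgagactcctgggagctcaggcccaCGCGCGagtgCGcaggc

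These windows hold 17 CG dinucleotides for ZNF615, 11 for ZNF550, 16 for ZNF426, 8 for ZNF700, 7 for ZNF91, 20 for ZNF329, 20 for ZNF529 and 24 for ZNF382. ZNF529 and ZNF382 stand head to head, and their windows share 55 bases. Of 238 members 208 had a RefSeq promoter, and all 208 windows of 250 bases held at least 1 CG, against 93.6% of 27305 RefSeq promoters. The median was 16 CG in the members and 11 in all promoters. All members are protein-coding, while the RefSeq promoters include those of other genes. In the longer windows around the start that are used further below, the members had a median of 20 CG. Promoters of protein-coding genes had 22 there, and all promoters 14. The members' median was therefore not above that of protein-coding genes, but their counts were less spread. The quartiles were 14 and 26 in the members, against 8 and 32 in promoters of protein-coding genes. Of the members 93.3% had 10 or more CG there, against 73.0% of those promoters.

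The first comparison asked what happened to these genes when E7 was deleted in HCT116. By edgeR's quasi-likelihood test across all genes, with Benjamini-Hochberg adjusted p below 0.05 as the threshold, 14 of the 169 members tested fell in the E7 clone and none rose. Over all 17664 genes tested, 13.9% changed and 6.32% fell. The median log2 change was -0.13 for the members and -0.01 for all genes, and 119 of the 169 members had a negative sign. Control clones showed such shifts too. Against the other 3 control clones, the member median was -0.10 in control clone 3, where 101 of 152 members were negative. It was 0.07 in control clone 1, 0.08 in clone 2 and -0.03 in clone 4. On to off switches were 3 of 140 members on in the controls, against 0.137% of 12454 genes (17 genes). None of the members went from off to on, against 0.121% of 12352 genes. ZNF genes of other chromosomes made 0 on to off switches among 187, and of 199 tested 14 fell and 8 rose. Of 836 other protein-coding genes of chromosome 19 tested, 73 fell (8.73%, beside 8.28% of the members) and 49 rose. Their median log2 change was -0.06.

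ZNF615, a KRAB zinc finger gene, had 2.04 CPM in the lowest, 2.80 in the median and 5.42 in the highest of the 12 control libraries, and 0.0673, 0.0702 and 0 CPM in the E7 libraries of days A, B and C. The groups did not overlap. The E7 libraries held 2 counts in all, and the ratio of pooled CPM, control over E7, was 63.0 (95% counting interval 17.4 to 522). The fitted log2 change was -5.87 (SE 0.46, edgeR adjusted p = 0.000433). ZNF615 had 2.06 to 3.83 CPM in the 18qNE clones. The 18qE clones had 0.884 and 2.08 CPM, below both day D controls (2.55 and 3.35 CPM), and did not pass the test.

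ZNF550 showed the same step. Its control libraries ran from 2.46 through 3.51 to 4.64 CPM (lowest, median, highest), and its E7 libraries had 0.0673, 0.14 and 0.0871 CPM. All 3 E7 libraries lay far below the lowest control library. The log2 change was -5.03 (SE 0.38, edgeR adjusted p = 0.000397).

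ZNF426 lay just inside the limit that defines off. Its control libraries had 1.79 CPM at the lowest, 4.25 at the median and 5.68 at the highest, and the E7 libraries had 0.202, 0.281 and 0.0871 CPM, which pool to 0.197 CPM. Control clone 3 gave the lowest control values, on days B and C. The log2 change was -4.33 (SE 0.61, edgeR adjusted p = 0.00421).

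The next 3 members by size fell without going off. ZNF419, whose product is known as a source of a minor histocompatibility antigen, was just outside the limit, with 0.807, 0.562 and 0.261 CPM in the E7 libraries against 2.29 to 4.88 CPM in the controls (log2 change -2.59, SE 0.37, edgeR adjusted p = 0.00464). ZNF701 had 1.41, 1.83 and 1.22 CPM against 4.16 to 8.02 CPM (-2.12, SE 0.28). ZNF350, also called ZBRK1 and known as a partner of BRCA1, had 1.21, 1.33 and 1.31 CPM against 1.89 to 4.98 CPM (-1.49, SE 0.36, edgeR adjusted p = 0.0312). None of these E7 values reached the control range. The other 8 members that fell, ZNF266, ZNF134, ZNF814, ZNF296, ZNF845, ZNF761, ZNF83 and ZNF581, had log2 changes from -1.16 to -0.45. Leaving out control clone 1 or control clone 2 each left 7 members, the same 7, and took ZNF350 and the smaller falls out of the calls, ZNF266 and ZNF134 excepted. With the 18qNE clones as the reference, the members that passed were ZNF615, ZNF550 and ZNF426, 3 of 152.

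**Figure D2:**
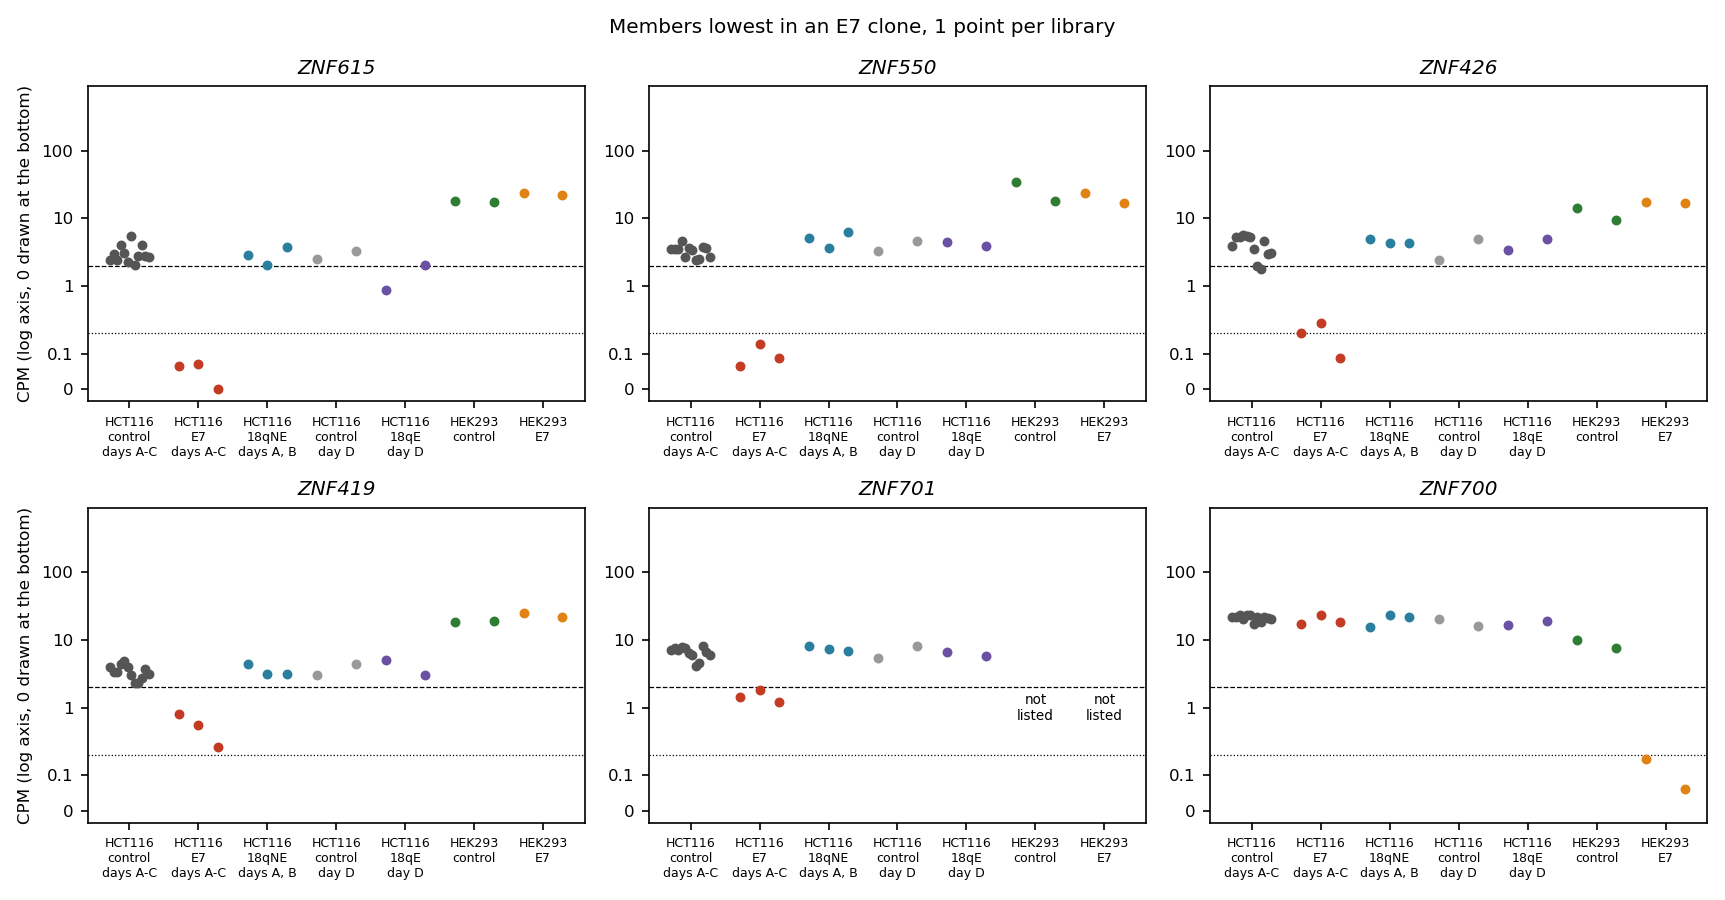
CPM (log axis, with 0 drawn at the bottom) of 6 members in every library, by group, 1 point per library; the dashed line is 2 CPM and the dotted line 0.2 CPM. ZNF615 and ZNF550 lie under 0.2 CPM in all 3 HCT116 E7 libraries and ZNF700 in both HEK293 E7 libraries, and ZNF701 is not listed in HEK293.

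Neighbours of the 3 switched genes along the chromosome were mixed. ZNF615 lies between ZNF350, which fell, and ZNF614, which had 9.34 CPM in the control clones and 7.56 CPM in the E7 clone and did not pass. ZNF550 lies 3 members from both ZNF419 and ZNF134, which fell, while its neighbour ZNF416 had 4.89 and 4.46 CPM. ZNF426 lies beside ZNF121, with 130 and 112 CPM, and 2 members from ZNF266, which fell from 18.8 to 8.30 CPM. Of the 14 members that fell, 6 lie among the 39 genes from ZNF175 to ZNF331, 5 among the 56 from ZNF628 to ZNF446, 2 among the 15 from ZNF557 to ZNF846, and ZNF296 in another block (blocks are separated by more than 1 Mb without a member).

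Transcripts of the proteins that KRAB zinc finger factors work with changed little in the E7 clone. By edgeR 4.55% of the repression partners and 15.4% of the DNA methylation genes passed, against 13.9% of all genes tested. Of 22 tested repression partners, ATRX, a chromatin remodeller, rose (log2 change 0.39, SE 0.09, edgeR adjusted p = 0.0304) and none fell, and TRIM28 had 891 CPM against 1087 CPM in the controls without passing. Of 13 tested DNA methylation genes, DNMT3B, which lays down new DNA methylation, fell from 63.2 to 32.7 CPM (-0.93, SE 0.11, edgeR adjusted p = 0.00243), and DNMT3A, its relative, rose from 12.6 to 17.3 CPM (0.47, SE 0.13, edgeR adjusted p = 0.0492). With the 18qNE clones as the reference none of these 3 genes passed, and without control clone 1 or 2 ATRX and DNMT3A did not. In 18qNE, 18qE and HEK293 E7, edgeR called 0 of 22 partners and 0 of 13 methylation genes. At an unadjusted p below 0.05 there were 0, 0 and 2 partners and 0 methylation genes in each. Of all genes 3.25%, 2.56% and 12.6% reached that p. The part of these changes in the falls of the ZNF genes was not tested.

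The 18qNE and 18qE clones were compared with controls for the same question. By edgeR, 0 of 157 members passed for 18qNE (background 0% of 15524 genes) and 0 of 157 for 18qE (background 0% of 15261 genes). At an unadjusted p below 0.05 there were 7 members for 18qNE (4.46%, against 3.25% of all genes) and 2 for 18qE (1.27%, against 2.56%). DESeq2 called 0 members in both. None of 140 members for 18qNE and of 137 for 18qE went from on to off, where the background was 0% of 12454 and of 12253 genes. Without the library labelled control clone 1, or without that labelled control clone 2, 18qE again had 0 members called and 0 switched. The 3 members that went off in the E7 clone were on in all 3 18qNE clones, at 2.06 CPM or more, and ZNF550 and ZNF426 were on in both 18qE clones, at 3.38 CPM or more.

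In HEK293, E7 deletion went with the loss of a different member. ZNF700, a KRAB zinc finger gene of a cluster of its relatives, had 9.94 and 7.47 CPM in the control libraries and 0.172 and 0.0636 CPM in the E7 libraries. The groups did not overlap, and ZNF700 was the only one of 143 listed members to go from on to off, against 0.0440% of 11374 genes (5 genes). The ratio of pooled CPM was 72.4 (95% counting interval 36.5 to 169). The log2 change was -6.19 (SE 0.48), and edgeR's adjusted p of 0.0625 missed the threshold in this comparison of 2 against 2, while 7 of 9 alternatives put it past 0.05. In HCT116, ZNF700 ran from 17.1 to 23.5 CPM in the control libraries and from 17.2 to 23.3 CPM in the E7 libraries. ZNF69, which overlaps ZNF700 on the same strand, is not listed in HEK293 and had at most 0.28 CPM in any HCT116 library.

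By the same test 0 of 143 members passed in HEK293, where 0.0254% of 11806 genes (3 genes) did. At an unadjusted p below 0.05 there were 4 members (2.80%, against 12.6% of all genes). DESeq2 called 3 members, ZNF700, ZNF599 and ZNF793, all lower. ZNF793 had 68.0 and 21.5 CPM in the controls and 12.9 and 7.38 CPM in E7. The 2 control libraries differed from each other far more than the E7 libraries did, with a chi-square per degree of freedom of 210 against 18.97. Without control clone 1 of HEK293 edgeR called 55 members (6210 genes in all), without control clone 2 it called 11, and without E7 library 1 or 2 it called 2 or 1.

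Whether the E7 change differed between the lines was tested by an interaction term. It passed for 7 of 143 members, against 3.38% of 11849 genes. The log2 change in HEK293 minus that in HCT116 was -6.09 for ZNF700 (SE 0.37, edgeR adjusted p = 0.000431). The difference was positive for ZNF615 (6.19, SE 0.44), ZNF426 (4.85, SE 0.70), ZNF550 (4.63, SE 0.68), ZNF419 (2.89, SE 0.41), ZNF134 (1.16, SE 0.24) and ZNF266 (1.09, SE 0.21). In HEK293 these 6 stayed on with E7 deleted: ZNF615 had 17.8 and 17.4 CPM in the controls and 23.4 and 22.2 CPM in E7, and ZNF426 had 14.1 and 9.48 CPM and 17.6 and 17.1 CPM. Without either HEK293 E7 library the count was 2, ZNF615 and ZNF700 still passing, and without HEK293 control clone 1 or 2 it was 51 or 20.

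**Figure D3:**
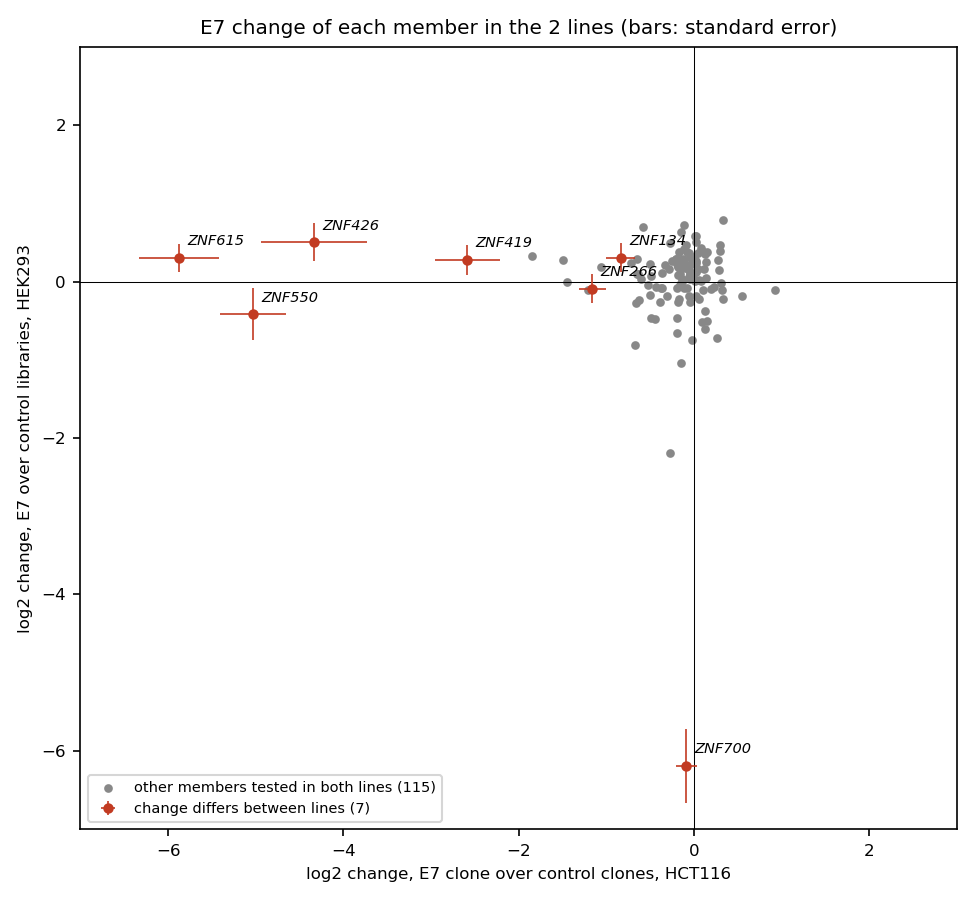
Log2 change with E7 deletion in HCT116 (horizontal) against HEK293 (vertical) for the 122 members tested in both lines, with standard errors for the 7 members whose change differed between lines. ZNF615, ZNF550, ZNF426 and ZNF419 lie far left near 0 on the vertical axis, and ZNF700 lies at -6.19 on the vertical axis near 0 on the horizontal.

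The largest contrast was between the lines themselves. In the control clones, 99 of 143 members differed between HEK293 and HCT116, against 57.0% of 11805 genes, and 87 were higher in HEK293, against 31.1% of the genes. The median log2 difference, HEK293 over HCT116, was 0.99 for the members and 0.05 for all genes tested, and 0.09 for 169 ZNF genes of other chromosomes. Reads of the 143 listed members made up 0.429% and 0.459% of the gene counts of the HEK293 controls, over 11887 listed genes. Reads of all 238 members made up 0.219% to 0.258% in the HCT116 controls of days A to C, over 57820 genes. These shares cover unlike sets of genes. All 143 were on in the HEK293 controls, so the authors' choice of genes for those files may follow the HEK293 level. Genes on in HCT116 and off in HEK293 could therefore not be counted. The same choice could raise the number of members higher in HEK293 and their median difference. Those values, and the states below, describe the 143 listed members and not all 238. Line and extraction day cannot be told apart.

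By states, 19 of 143 members were on in the HEK293 controls and off in the HCT116 controls, against 3.73% of 11374 genes (424 genes). Of 169 ZNF genes of other chromosomes, 11 were. ZNF420, known as a regulator of p53, had 42.7 and 40.6 CPM in HEK293 and 1 count in the 12 HCT116 control libraries together. ZNF71, ZNF536, ZNF382 and ZNF570 had 0 counts in those 12 libraries. At 3 counts over the HCT116 controls as the limit of detection, they were at least 1088-fold (ZNF71), 905-fold (ZNF536, a factor known from neuronal differentiation), 819-fold (ZNF382) and 554-fold (ZNF570) higher in HEK293. ZNF260 had 112 and 72.5 CPM against 0 to 0.293 CPM, ZNF529 had 99.9 and 81.0 CPM against 0 to 0.208 CPM, and ZNF331, an imprinted gene, had 61.2 and 79.3 CPM against 0 to 0.0932 CPM. No HCT116 control library came near the HEK293 level for these 3. The others of the 19 were ZNF569, ZNF568, ZNF606, ZNF841, ZNF790, ZNF345, ZNF773, ZNF256, ZNF284, ZNF582 and ZNF223. ZNF568, at 0.181 CPM in the HCT116 controls, was just inside the limit for off, and ZNF829, at 0.202 CPM against 42.7 CPM in HEK293, just outside.

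By position, a block of 24 members from ZNF565 to ZNF573, of which HEK293 lists 22, held 9 of the 19, including the neighbours ZNF260, ZNF529 and ZNF382 in a row. In the same block ZNF146, a gene of zinc fingers without a KRAB domain, had 257 CPM in the HCT116 controls and 442 CPM in HEK293, and ZNF875 had 14.8 and 80.9 CPM. Of other runs of members off in HCT116, the 6 neighbours from ZNF763 to ZNF625 and the 6 from ZNF43 to ZNF98 are not listed in HEK293. In 300 bases around the RefSeq start, the members off in HCT116 and on in HEK293 had a median of 23.5 CG dinucleotides (18 of 19 with a promoter), those on in both 21 (101 of 112) and those off in HCT116 and not listed in HEK293 14 (42 of 50). Over all RefSeq promoters of that length the median was 14, and over those of protein-coding genes 22.

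**Figure D4:**
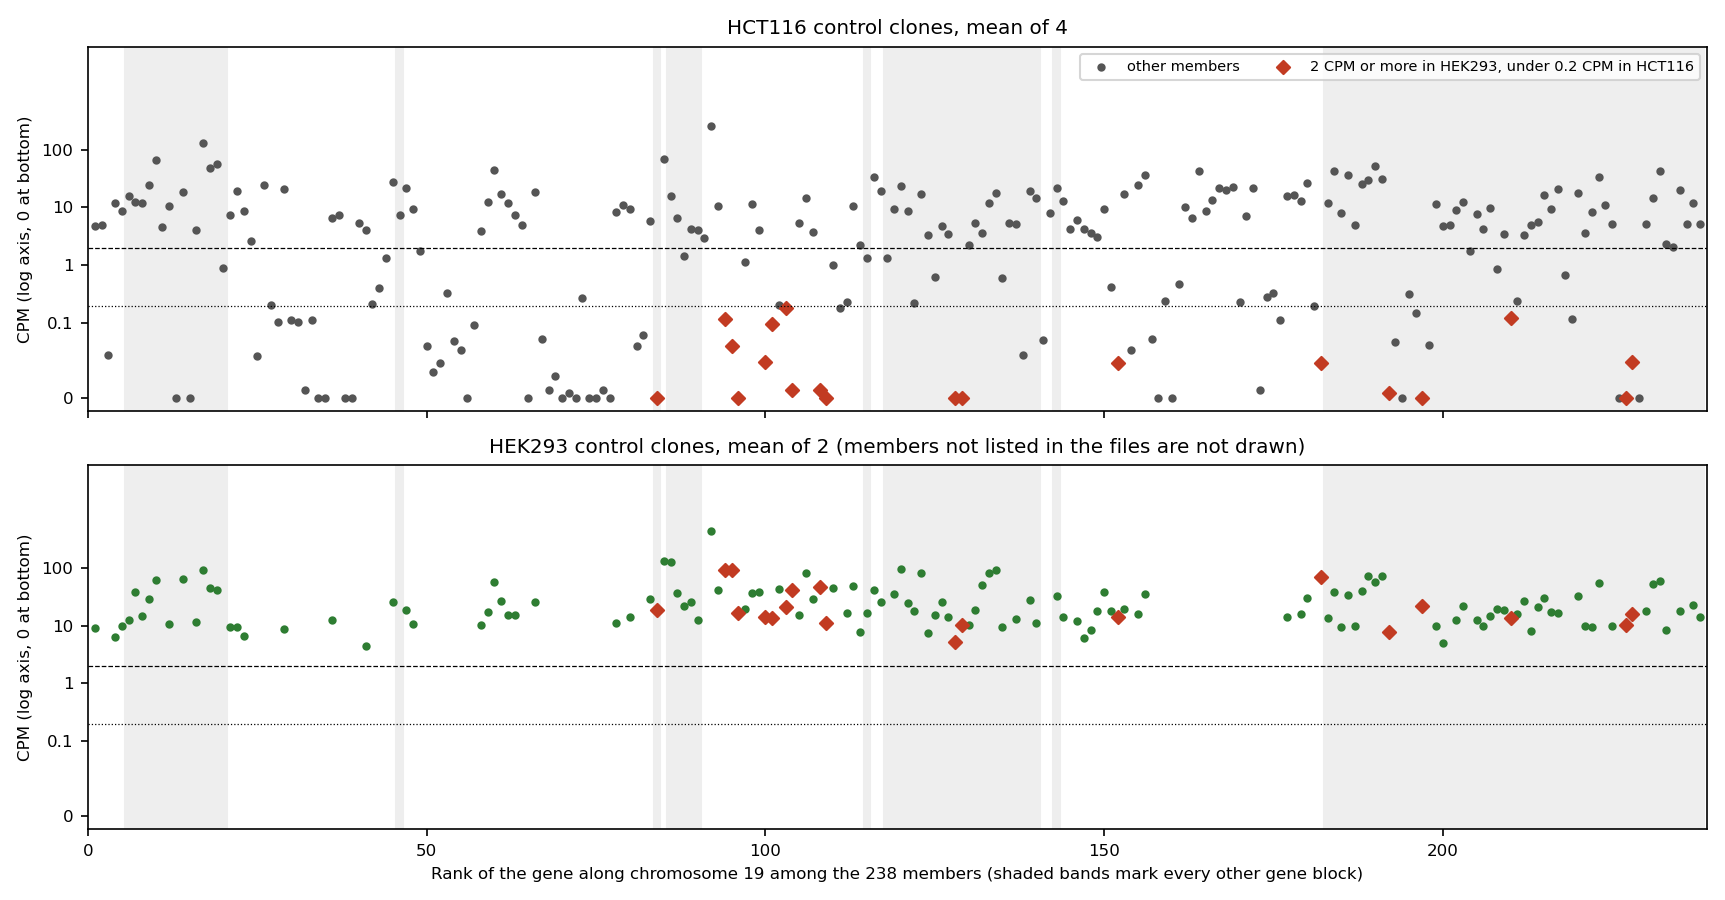
Mean CPM (log axis, with 0 drawn at the bottom) of each member in the HCT116 controls (top) and HEK293 controls (bottom), in order along chromosome 19; dashed and dotted lines are 2 and 0.2 CPM. Red diamonds are the 19 members on in HEK293 and off in HCT116, 9 of them in 1 block near the middle of the order.

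Among the 143 listed members, 12 were lower in HEK293. Another 28 members on in the HCT116 control mean are not listed in HEK293. Falls to a low level there could not be seen, so the sizes below cover listed members alone. Of the 12, ZNF700 had the largest log2 difference, -1.51 (SE 0.15, edgeR adjusted p = 0.00018). It had 21.1 CPM in the HCT116 control clones (SD 1.53, n = 4) and 8.71 CPM in the HEK293 control clones (SD 1.74, n = 2). ZNF627 followed at -1.27 (SE 0.15), ZNF57 at -1.17 (SE 0.15), ZNF766 at -0.85 (SE 0.15), ZNF121 at -0.75 (SE 0.11) and ZNF562 at -0.68 (SE 0.17). With the day D libraries as the HCT116 controls, ZNF121 and ZNF562 did not pass, and with the library labelled control clone 2 as the only HCT116 control none of these 6 did. Of the 22 repression partners 3 were higher and 5 lower in HEK293, among them RBBP7, a histone chaperone, higher (1.84, SE 0.09), CBX1, a heterochromatin protein, lower (-0.94, SE 0.15), and CHD4, a chromatin remodeller, lower (-0.73, SE 0.11). Of the 13 DNA methylation genes 3 were higher, TET1, which oxidises methylated cytosine (1.74, SE 0.31), TDG, a glycosylase of active demethylation (1.38, SE 0.11), and ZBTB33, a reader of methylated DNA (1.19, SE 0.19), and 3 were lower, DNMT3B by the most (-1.28, SE 0.15). Between the lines, edgeR called 36.4% of the partners and 46.2% of the methylation genes, both below the 57.0% of all genes tested. TRIM28 had 1087 CPM in the HCT116 and 1239 CPM in the HEK293 controls.

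Control clones that had lost no element were compared with each other next, since clones of one line can differ on their own. With the 12 libraries of days A to C and day as a term, 10 of 152 members differed among the 4 clones, against 7.89% of 14685 genes. Against the other 3 clones, the count was 3 for clone 1 (0.953% of genes), 2 for clone 2 (1.26%), 14 for clone 3 (7.65%) and 5 for clone 4 (5.30%). The calls for clones 1, 2 and 3 include ZNF91 and ZNF850, whose low values in clone 4 enter those contrasts.

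ZNF91, a KRAB factor known to repress SVA retrotransposons, was nearly silent in 1 control clone. Clone 4 had 0.186, 0.415 and 0.0781 CPM on days A, B and C, and the 9 libraries of clones 1 to 3 had 10.1 to 19.5 CPM. The groups did not overlap, and the pooled level of clone 4, 0.225 CPM, lay just outside the limit for off. The log2 difference of clone 4 from the others was -5.99 (SE 0.27, edgeR adjusted p = 3.8e-09). ZNF91 was on in the E7 clone (11.7 to 14.7 CPM), the 18qNE clones (12.3 to 18.1 CPM) and the 18qE clones (13.5 and 7.75 CPM), and is not listed in HEK293. Its neighbours were ZNF724, with 8.46 CPM in clones 1 to 3 and 7.51 CPM in clone 4, and ZNF675, known as an inhibitor of TRAF6 signalling, which fell from 10.3 to 5.96 CPM (-0.80, SE 0.12, edgeR adjusted p = 0.00159) and did not pass without day C.

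ZNF850 followed ZNF91 at a smaller scale. It had 0.56, 0.581 and 0.625 CPM in clone 4 and 3.38 to 8.45 CPM in clones 1 to 3 (-3.14, SE 0.22, edgeR adjusted p = 4.6e-07). ZNF432, named after its values were seen, was removed by the filter on low counts, and DESeq2 and edgeR without that filter called it among the clones. It had 0 counts in all 3 libraries of clone 4 and 62 counts in the 9 libraries of the others. It was also at 0 to 0.142 CPM in the 18qNE clones and at 0.0433 CPM in 1 18qE clone. In the E7 clone ZNF850 had 1.28 to 1.83 CPM, between clone 4 and the other control clones, and it did not pass against all 4 controls (log2 change -1.45, SE 0.98, edgeR adjusted p = 0.37) but did without control clone 4. Apart from ZNF91 and ZNF850, clone 3 showed smaller differences: on the log2 scale ZNF837, ZNF358 and ZNF527 were higher (0.71, 0.70 and 0.60) and ZNF426, ZNF525, ZNF350, ZNF443, ZNF765 and ZNF701 lower (-0.86 to -0.51). Of these 9, ZNF358 and ZNF525 passed with each day left out, and the other 7 lost the call with at least 1 day left out. Leaving out day C left 3 of the 10 members that differed among clones, ZNF91, ZNF850 and ZNF525, leaving out day B gave 6, and leaving out day A gave 15.

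The 2 control libraries of day D showed the same genes in another place. The library labelled control clone 1 had 0.0809 CPM of ZNF91, while clone 1 on days A to C had 15.6 CPM, and 1 of 139 members on in clone 1 was off in it (0.0242% of 12400 genes). It also had 0.809 CPM of ZNF850 and 0.0809 CPM of ZNF432. In the library labelled control clone 2 ZNF329 was off, at 0.174 CPM against 5.70 CPM in clone 2 on days A to C, the only one of 141 members (0.0480% of 12493 genes). ZNF329 ran from 3.58 to 6.20 CPM in the 12 control libraries and was on in every other library of both lines. Between the 2 day D controls, ZNF91 was thus off in one and ZNF329 off in the other, at 11.8 and 5.09 CPM in the one that held them.

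**Figure D5:**
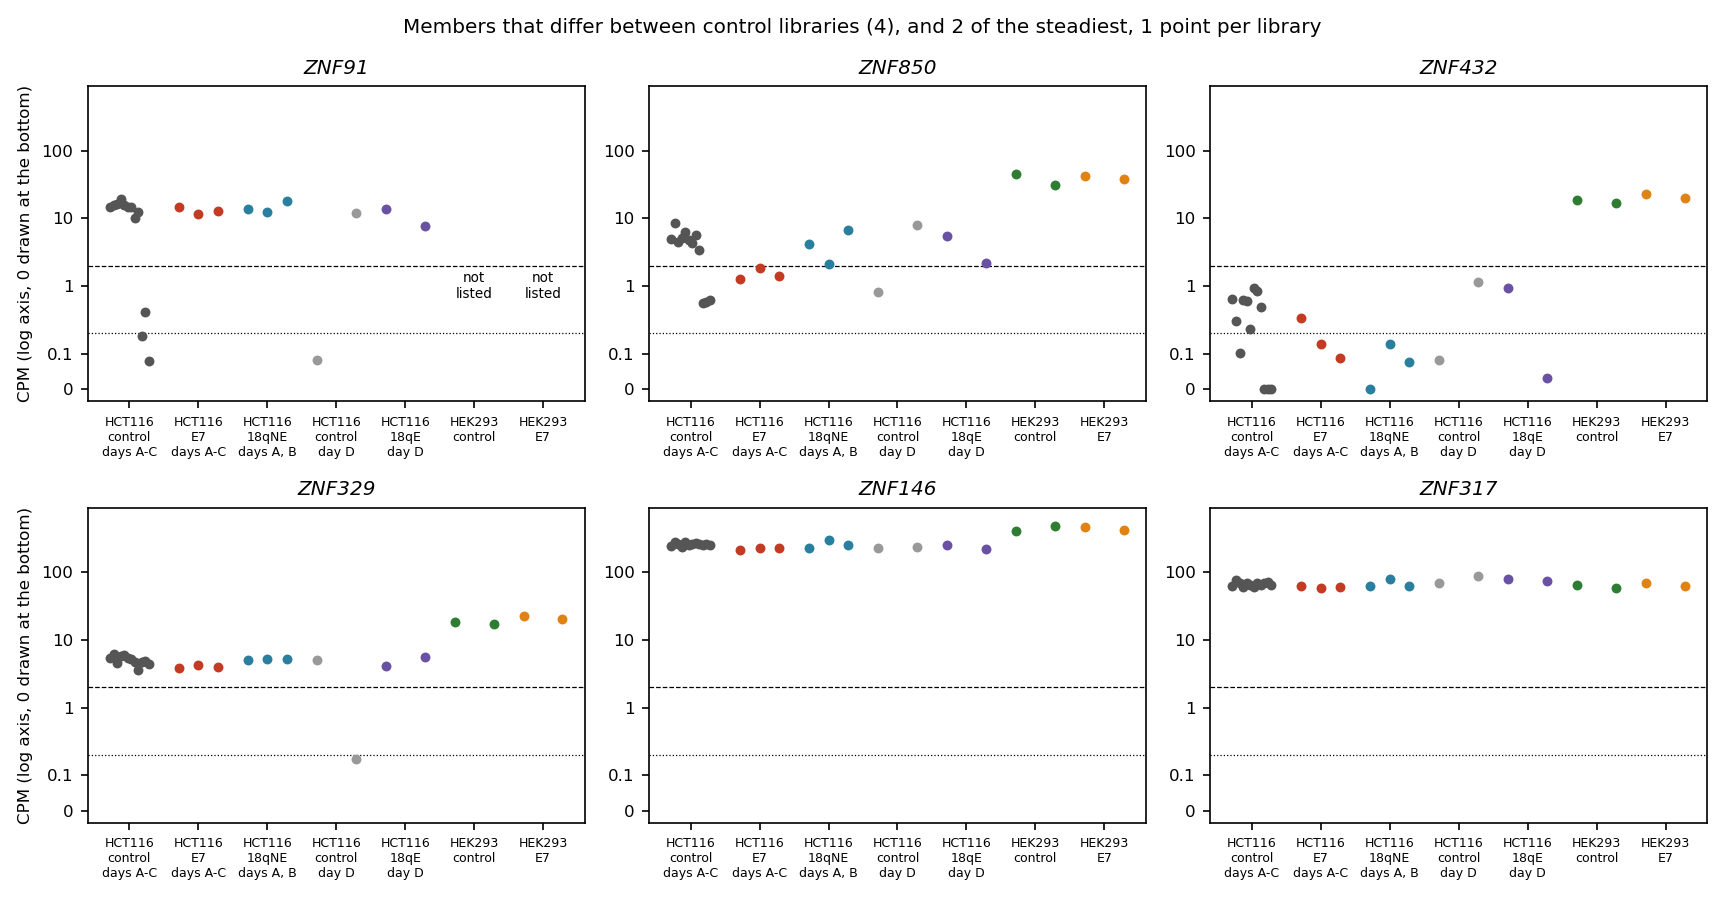
CPM (log axis, with 0 drawn at the bottom) of 6 members in every library, by group. ZNF91 and ZNF850 are low in clone 4 and in 1 day D library, ZNF432 there, in the 18qNE clones and in 1 18qE clone, ZNF329 is low in the other day D library alone, and ZNF146 and ZNF317 vary little.

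Spread among control clones was measured for members well above the on limit. Among the 108 members at 5 CPM or more in the HCT116 controls, the median SD of log2 CPM over the 4 clones was 0.112, beside 0.0926 for all 11039 genes at that level. ZNF146 ran from 233 to 277 CPM over the 12 control libraries, ZNF317 from 60.7 to 76.9 CPM and ZNF101 from 18.95 to 24.0 CPM, the 3 smallest spreads over those libraries. In the HEK293 controls ZNF317 and ZNF101 averaged 62.1 and 18.4 CPM, lower than in HCT116 by the test between lines (-0.33, SE 0.09, edgeR adjusted p = 0.0185, and -0.45, SE 0.11, edgeR adjusted p = 0.0112).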

How the data were processed

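RNA was extracted with Trizol and sequenced as single-end TruSeq libraries, per the labels' protocols. The authors deposited whole-number read counts for each gene, without normalization. Per the submitters' processing notes, tools including TopHat2 and HTSeq 0.6.1 were used with build hg19. Sources used here do not give the strand setting or the rule that chose the HEK293 genes. Reads aligned at several places (12.3% to 24.8% of reads in HCT116) and ambiguous reads were outside gene counts, so levels of near-identical or overlapping ZNF genes are uncertain. The 5 summary lines of each HCT116 file were left out.

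Symbols, chromosome and gene order came from NCBI tables of GRCh38.p14. CPM used gene counts alone. Tests were edgeR 4.0.16 quasi-likelihood F tests with TMM scaling and genes kept by filterByExpr (minimum 10 counts), run in R 4.3.3 and adjusted over all genes tested, with DESeq2 1.42.0 as an alternative. For E7 in HCT116, libraries were summed per clone (4 against 1), and the lone clone is assumed to vary like the controls. The 18qNE clones were set against control clones with days A and B summed. P-values rest on the spread among these clones or libraries alone. Counting intervals cover counting error only. The tests of E7, 18qNE and 18qE in HCT116 were checked on simulated counts. Every gene had the same spread there, and deletion clones varied like the controls, so that assumption was not checked. The other tests were not simulated. The members and gene lists were chosen with earlier results of these data known.

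Genes were named by rule: the markers ZNF700, ZNF615 and ZNF91, up to 12 switching members per comparison, up to 6 called members per direction, up to 5 list genes, and the 3 steadiest members. Neighbours, and ZNF432, ZNF599, ZNF793, ZNF829, TRIM28, TET1 and ZBTB33, fall outside it. The chromatin immunoprecipitation and 4C samples were not used here. Alternatives were another tool, scaling or filter, left-out replicates, replicate blocks, other references and other limits for on and off.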

Additional observations from a re-analysis of the deposited data

Results flagged for a closer look

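Of 41 named members, those with an HCT116 control mean under 0.2 CPM were passed over. Among the rest, the rule for an outlying control clone flagged 1. It did not flag ZNF91 or ZNF850, although both were far lower in control clone 4 than in the other 3. The flag is therefore not a count of all members with an outlying clone. ZNF837 had 2.82 CPM in control clone 3 and 1.71 to 1.81 CPM in the other clones. Chance alone sets about 1 in 20 such groups apart where they are not picked by their values. ZNF837 was named because it was called in clone 3, so that rate does not apply to it.

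The change with E7 deletion differed between HEK293 and HCT116 for 7 members, by the interaction term of edgeR. The change in HEK293 minus that in HCT116, on the log2 scale, was -6.09 for ZNF700, 1.09 for ZNF266, 1.16 for ZNF134, 2.89 for ZNF419, 4.63 for ZNF550, 4.85 for ZNF426 and 6.19 for ZNF615. Each line has 1 E7 clone label.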

How the results depend on the processing

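No named gene changed direction under any of the 500 single-gene alternatives run (59 results), of which 411 kept their side of the threshold, 82 lost the call and 7, all of ZNF700 in HEK293, gained it. For E7 in HCT116, where 14 members passed, leaving out 1 clone or library gave 7 to 20, libraries as replicates with the day as a replicate block gave 40 (34 lower, 6 higher), and the 18qNE clones as reference gave 3. ZNF615, ZNF550 and ZNF426 passed in all 12 alternatives. For E7 in HEK293, where 0 members passed, DESeq2 gave 3, the library number as a replicate block 3, both E7 libraries summed 2, and leaving out 1 library 1 to 55. The clone number as a replicate block left 0 for 18qNE and 18qE, but these numbers do not pair samples: same-numbered deviations correlated at -0.203 to 0.128 (18qNE), 0.078 (18qE) and 0.359 (HEK293). For control clones, where 10 members differed, no filter on low counts gave 18 (more genes were tested) and leaving out 1 day 3 to 15. The interaction, 7 members, ran from 2 to 51 with 1 clone or library left out. The cause of these shifts was not tested. Except where stated, the share over all genes is not given beside the member counts of the alternatives, here or above. These counts show how far the calls moved and not how members compare with other genes.

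On at 5 CPM with off under 0.5 CPM gave 0 on to off members for E7 in HCT116, since all 3 were under 5 CPM in the controls, and on at 1 CPM with off under 0.1 CPM gave 0 in HEK293, where ZNF700 had 0.118 CPM. The line comparison, 99 members, gave 71 with the day D controls, 57 with the library labelled control clone 2 alone (1 sample, assumed to vary like HEK293; added after seeing the data), and 91 to 117 otherwise. At these depths, 3 counts in a library are 0.0862 to 0.304 CPM, so 0.2 CPM is under 3 counts in each library of days A to C.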
